A study of Mus musculus with 6 samples.

Results

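The 6 genes described here encode ATP-binding cassette (ABC) exporters that carry glutathione conjugates, drugs and fluorescent dyes out of the cell. They are Abcb1b, Abcb1a, Abcg2, Abcc1, Abcc4 and Abcc5, chosen by symbol, and all 6 had a row among the 12067 genes of the table. The values are RPKM, a read rate scaled to library size and to the length of all annotated exons of a gene together. That length can exceed the length of the transcripts expressed, so levels can be compared between genes only roughly. Of the 6, Abcb1b, Abcc1, Abcc5 and Abcg2 reached 1 RPKM in at least 2 libraries and were among the 10609 genes of the main test, whereas Abcb1a reached 1 RPKM in 1 library and Abcc4 in 0 libraries.

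RNA was sequenced from skeletal muscle stem cells (MuSCs, also called satellite cells) of male C57BL/6 mice in 6 libraries, 2 per group. Cells were sorted as CD45-, CD31-, Sca1- and VCAM+, stained with 5 uM ThiolTracker Violet, a dye that reads out glutathione (GSH), and sorted again. The young group was 4 months old, with 1 animal per library and all stained cells collected. The old groups were 23 months old, with 2 pooled animals per library, and were collected as a GSH-high and a GSH-low fraction. Because the young cells were not divided by dye and the young libraries were not pooled, age cannot be told apart from these differences in collection. Recovered reads per library numbered 60.07 to 63.14 M in young, 60.78 to 68.81 M in old GSH-high and 47.01 to 50.72 M in old GSH-low. All 12 satellite cell markers had a row, and Pax7, the transcription factor that defines these cells, was at 7.93 and 7.64 RPKM in young, 8.09 and 8.65 RPKM in old GSH-high and 11.2 and 12.6 RPKM in old GSH-low. Against young, limma-trend called 1 of the 12 higher and 3 lower in old GSH-high, where 28.8% of all genes were called. In old GSH-low it called 2 higher and 5 lower, where 36.8% of all genes were called. The summed level of the 12 in old GSH-low was 78.8% of the young mean.

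ABC exporters are membrane proteins that use ATP to move substrates out of the cell. Members of the multidrug resistance protein group, which includes the products of Abcc1, Abcc4 and Abcc5, export organic anions, and the product of Abcc1 is a classical exporter of glutathione S-conjugates made by glutathione S-transferases. P-glycoprotein, encoded in mice by the neighbouring genes Abcb1a and Abcb1b, exports hydrophobic drugs and dyes, and the breast cancer resistance protein encoded by Abcg2 exports the DNA dye Hoechst and marks the dye-excluding side population in many tissues, muscle included. P-glycoprotein and Abcg2 are also known in the endothelium of small vessels.

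RefSeq promoter sequences (assembly GRCm38.p6) were matched for 5 of the 6 genes, and Abcc1 had no match. Shown are the 250 bases before a single start, each read 5′ to 3′ on the gene's strand. They are given for 3 of the 4 genes called higher in old GSH-high than in young cells by limma-voom. That test is described below and was chosen after seeing the data. The main test, limma-trend, called Abcb1b and Abcg2 and did not include Abcc4. The fourth, Abcb1a, is left out because its RefSeq start lay 92986 bases upstream of the gene start in the GENCODE annotation. Capitals mark matches, on either strand, to the letters searched. These were the GC box GGGCGG, the CCAAT box CCAAT, the TATA box TATAAA, the antioxidant response element core TGACNNNGC, the xenobiotic response element core GCGTG and the AP-1 site TGANTCA, whose letters can overlap those of the antioxidant response element core.
Abcb1b, chr5:8797897-8798146, plus strand: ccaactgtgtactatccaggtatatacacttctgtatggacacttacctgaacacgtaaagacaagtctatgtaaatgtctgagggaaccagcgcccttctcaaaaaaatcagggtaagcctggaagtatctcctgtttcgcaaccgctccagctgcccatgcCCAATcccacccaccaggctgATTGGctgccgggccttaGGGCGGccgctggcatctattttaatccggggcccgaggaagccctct
Abcg2, chr6:58596422-58596671, plus strand: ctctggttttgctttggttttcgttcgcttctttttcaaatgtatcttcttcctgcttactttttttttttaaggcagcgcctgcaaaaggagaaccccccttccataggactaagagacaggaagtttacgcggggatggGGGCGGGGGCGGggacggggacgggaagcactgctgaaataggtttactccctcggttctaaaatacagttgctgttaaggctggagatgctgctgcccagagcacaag
Abcc4, chr14:118706220-118706469, minus strand: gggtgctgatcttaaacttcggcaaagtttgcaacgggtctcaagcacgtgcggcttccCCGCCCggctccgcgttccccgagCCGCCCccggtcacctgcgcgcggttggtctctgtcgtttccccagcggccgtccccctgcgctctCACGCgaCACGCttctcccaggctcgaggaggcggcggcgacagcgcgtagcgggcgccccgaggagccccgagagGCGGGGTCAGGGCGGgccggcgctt
The Abcb1b window held 2 CCAAT boxes, 87 and 66 bases before the start, and a GC box 48 bases before it. In the Abcg2 window, which precedes the start used by its longest coding transcript, 2 adjoining GC boxes lay 109 and 103 bases before the start. The Abcc4 window was the richest in G and C, at 72.0% against 52.8% for Abcb1b, 50.0% for Abcg2 and a median of 52.4% over 32851 promoters. It held GC boxes 191, 167 and 16 bases before the start, xenobiotic response element cores 101 and 94 bases before it, and an antioxidant response element core 25 bases before it that adjoins the last GC box. Over all 32851 windows of this length, 32.7% held a GC box, 33.8% a CCAAT box, 12.4% a TATA box, 10.2% an antioxidant response element core, 28.2% a xenobiotic response element core and 6.75% an AP-1 site. RefSeq also gave other starts for Abcg2 and Abcc4, whose windows are not shown and differed. For Abcg2, the window before 58640546 was 67.6% G and C with 4 GC boxes. That before 58584533 was 51.2% G and C and held none of the letters searched. For Abcc4, the window before 118676931 was 47.6% G and C, with no GC box and an antioxidant response element core 23 bases before the start. The window of Abcc5, a gene that neither test called, was 64.0% G and C and held none of the letters searched. All of these are matches of letters and not measured binding sites, and no link between them and the levels was tested.

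The levels of the 6 transcripts spanned a wide range. Abcb1b averaged 24.6 RPKM over the 6 libraries, above 83.6% of the genes in the table. Abcc1 followed at 9.12 RPKM, above 63.9% of genes, and Abcc5 at 4.0 RPKM, above 44.4%. Abcg2 averaged 1.24 RPKM, Abcc4 0.748 RPKM and Abcb1a 0.601 RPKM, in the lowest part of the table, each above 19.6%, 10.3% and 6.9% of genes. The ranges over libraries did not overlap between Abcb1b, Abcc1, Abcc5 and the 3 low genes, whereas those of Abcg2, Abcc4 and Abcb1a overlapped one another. Abcb1b made up 58.8 to 62.6% of the summed RPKM of the 6 exporters in every library, and Abcc1 21.0 to 25.6%. These ranks and shares depend on the exon length used, 15092 bases for Abcc1 and 7990 for Abcb1b. In young replicate 1, Abcc1 had 7736 reads and Abcb1b 9407, at 8.43 and 19.4 RPKM.

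**Figure D1:**
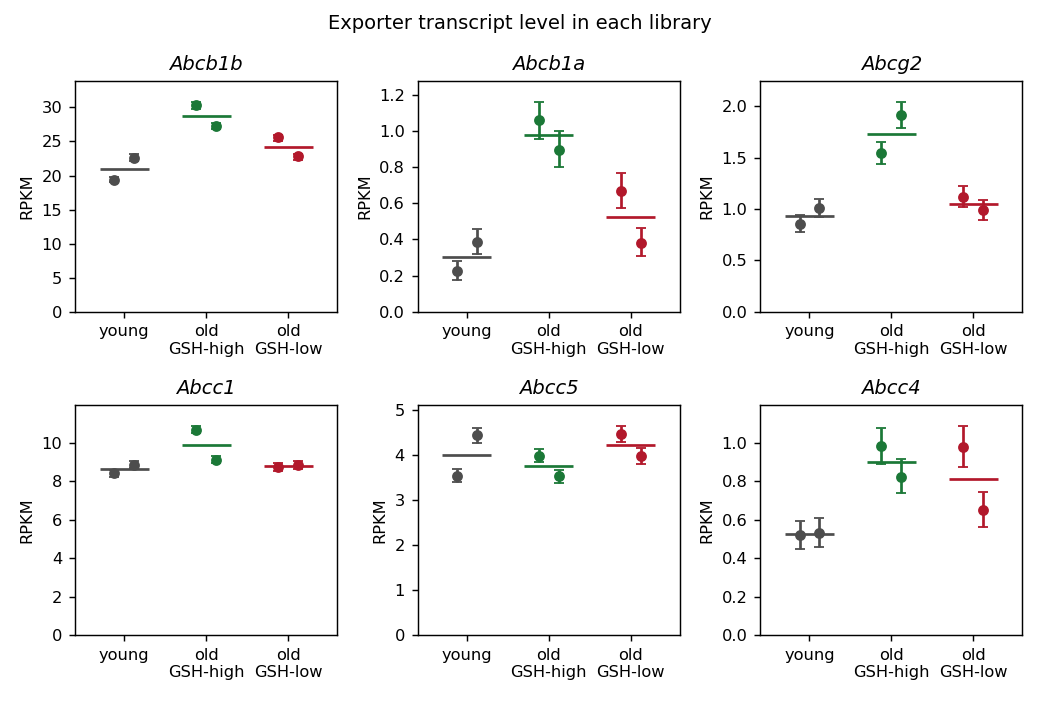
Transcript level of each exporter in RPKM, 1 panel per gene with its own linear axis from 0. Points are the 2 libraries of each group, vertical bars are exact Poisson 95% counting intervals, and horizontal lines are group means. The old GSH-high libraries lie above both young libraries for Abcb1b, Abcb1a, Abcg2, Abcc1 and Abcc4, and the groups overlap for Abcc5. With 2 libraries per group such separation is not a test, and its share over all genes is not given here.

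Mean levels were higher in old GSH-high than in young libraries for both P-glycoprotein genes and Abcg2. They were 1.37 times the young level for Abcb1b, 3.20 times for Abcb1a and 1.85 times for Abcg2. The Abcb1a reads are few and may be shared with Abcb1b, as described below. Abcc4 was 1.72 times the young level. The 2 multidrug resistance protein genes expressed above 1 RPKM, Abcc1 and Abcc5, did not pass the test, at 1.14 and 0.94 times the young level. The main test was limma-trend on log2(RPKM + 1), a scale that understates the change of low genes, and it called 2 of the 4 tested exporters higher and 0 lower. Of all 10609 genes, 28.8% were called in this comparison, 15.1% higher and 13.7% lower, and the median log2 fold change was 0.31 over the 4 exporters against -0.00 over all genes. A second test, limma-voom on recovered reads without a filter on low values, was chosen after seeing the data so that all 6 genes could be tested. It called 4 of 6 higher and 0 lower, where 31.4% of 12067 genes were called, 17.6% higher and 13.8% lower, with a median of 0.62 over the 6 exporters and 0.01 over all genes. Bulk RNA cannot tell fewer cells of a type from less RNA per cell.

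Abcb1b, the main P-glycoprotein gene of these cells (chromosome 5, 8798147 to 8866315, plus strand, mm10), was at 19.4 and 22.6 RPKM in young libraries and 30.3 and 27.3 RPKM in old GSH-high libraries. It was at 25.6 and 22.8 RPKM in old GSH-low libraries. The lowest old GSH-high library lay above every other library, and the old GSH-low libraries, at 22.76 RPKM and above, lay just above the higher young library at 22.62 RPKM. Means were 21.0 ± 2.3 RPKM in young, 28.8 ± 2.13 RPKM in old GSH-high and 24.2 ± 1.97 RPKM in old GSH-low (SD, n = 2 libraries each). Counting error was small, since each library held 8755 to 16750 Abcb1b reads. Old GSH-high exceeded young by 0.44 ± 0.11 on the log2 scale (SE, 95% interval 0.20 to 0.68, adjusted p = 0.015 by limma-trend). This call rested on single libraries: limma-trend gave 0.33 (adjusted p = 0.0584) with young replicate 1 left out and 0.37 (adjusted p = 0.127) with old GSH-high replicate 1 left out. On reads, limma-voom gave 0.46 ± 0.10 (adjusted p = 0.00607), and this call was lost only without old GSH-high replicate 1 (0.38, adjusted p = 0.0786) among the 6 fits that each left out a library.

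Abcb1a, the second P-glycoprotein gene, which lies upstream of Abcb1b on the same strand (8660077 to 8748575), had the largest ratio of the 6 between old GSH-high and young, at a low level and on reads that may be shared with Abcb1b. It was at 0.225 and 0.385 RPKM in young, 1.06 and 0.897 RPKM in old GSH-high, and 0.665 and 0.379 RPKM in old GSH-low. Old GSH-high libraries stood clear of all others, while old GSH-low and young overlapped. These levels rest on 75 and 124 reads in young, 400 and 304 reads in old GSH-high and 187 and 100 reads in old GSH-low, and the exact 95% counting interval of the lowest library ran from 59.0 to 94.0 reads. Old GSH-high exceeded young by 1.73 ± 0.31 in limma-voom (SE, 95% interval 1.04 to 2.41, adjusted p = 0.00145). The difference was called in all 6 fits that each left out a library, at 1.34 to 2.11 with limma-voom adjusted p from 0.00105 to 0.013. With log2(RPKM + 1) and no filter it was 0.60 ± 0.12 (limma-trend, adjusted p = 0.00726).

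The balance of the 2 P-glycoprotein genes is given by library, and no difference in it passed a test. Abcb1b exceeded Abcb1a by a factor of 86.0 and 58.7 in young libraries, 28.7 and 30.4 in old GSH-high and 38.4 and 60.0 in old GSH-low, in RPKM. The mean log2 ratio was 1.27 lower in old GSH-high than in young (4.89 against 6.15), and both old GSH-high libraries lay below both young ones. An exact two-sided permutation test gave p = 0.333, the smallest that 2 libraries against 2 allow, so this ratio cannot pass the test in this design. Old GSH-low overlapped young in this ratio (p = 0.667 by the same exact permutation test). The coding sequences of these 2 genes were 88.2% identical over 3819 aligned bases, with an identical run of up to 338 bases, whereas the other 14 pairs among the 6 genes were 58.7 to 61.2% identical. Windows of 150 bases, the read length, that were identical in both numbered 295, which is 5.54% of those in Abcb1a and 3.63% of those in Abcb1b. Windows of 50 bases, closer to a trimmed read, were found in another gene for 22.5% of those in Abcb1a and 12.8% of those in Abcb1b, and 889 of them were shared by this pair. How such reads were assigned is not given in the sources used here. With even coverage, the shared 150-base windows would hold 341 and 385 Abcb1b reads in young, 608 and 489 in old GSH-high and 380 and 318 in old GSH-low, more than all Abcb1a reads of each library. The Abcb1a level, its fold changes and the ratio are therefore uncertain by more than their counting error, and the part of shared reads in them was not tested. Abcb1a also overlapped the antisense gene Gm42686 over 553 bases (10.1% of its exons), and Abcb1b overlapped Gm5106 over 143 bases (1.79%). Counting by strand is not stated. Abcb4, the third gene of this cluster, was not analysed here.

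Abcg2, the Hoechst exporter (chromosome 6, 58584523 to 58695676, plus strand), was at 0.852 and 1.01 RPKM in young, 1.54 and 1.91 RPKM in old GSH-high and 1.12 and 0.991 RPKM in old GSH-low. Both old GSH-high libraries were above the other 4, which overlapped. Means were 0.931 ± 0.112, 1.73 ± 0.262 and 1.05 ± 0.088 RPKM in that order (SD, n = 2). Old GSH-high exceeded young by 0.50 ± 0.11 (SE, 95% interval 0.24 to 0.75, limma-trend adjusted p = 0.0106). The limma-trend call ended when young replicate 1 (0.44, adjusted p = 0.0528) or old GSH-high replicate 2 (0.40, adjusted p = 0.0809) was left out. On 389 to 964 reads per library, limma-voom gave 0.88 ± 0.17 (adjusted p = 0.00207) and kept the call whichever library was left out, with adjusted p up to 0.0195.

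Among the multidrug resistance protein genes, Abcc1 (chromosome 16, 14361558 to 14475737, plus strand) was at 8.43 and 8.88 RPKM in young, 10.7 and 9.14 RPKM in old GSH-high and 8.75 and 8.86 RPKM in old GSH-low. Old GSH-high replicate 1 stood above the other 5 libraries, which lay close together. The difference of old GSH-high from young was 0.17 ± 0.10 (SE, 95% interval -0.04 to 0.39, limma-trend adjusted p = 0.208). Abcc5, an exporter of cyclic nucleotides and other organic anions (chromosome 16, 20331303 to 20426394, minus strand), was at 3.55 and 4.45 RPKM in young, 3.99 and 3.54 RPKM in old GSH-high and 4.48 and 3.99 RPKM in old GSH-low. All 3 groups overlapped, and old GSH-high differed from young by -0.07 ± 0.12 (95% interval -0.33 to 0.20, limma-trend adjusted p = 0.707). A p that misses the threshold does not show equal levels, and these intervals reach 0.39 for Abcc1 and 0.20 for Abcc5.

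Abcc4, which exports cyclic nucleotides, prostaglandins and other organic anions (chromosome 14, 118482692 to 118706219, minus strand), was at 0.52 and 0.53 RPKM in young, 0.982 and 0.825 RPKM in old GSH-high and 0.979 and 0.65 RPKM in old GSH-low. All 4 old libraries lay above both young ones, and the 2 old fractions overlapped. On 199 to 434 reads per library, limma-voom gave 0.78 ± 0.23 for old GSH-high against young (SE, 95% interval 0.28 to 1.29, adjusted p = 0.0233). That call ended when replicate 1 of young (adjusted p = 0.0721, limma-voom) or of old GSH-high (0.151) was left out. On log2(RPKM + 1) without a filter, limma-trend gave 0.32 ± 0.11 and did not call it (adjusted p = 0.0645).

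**Figure D2:**
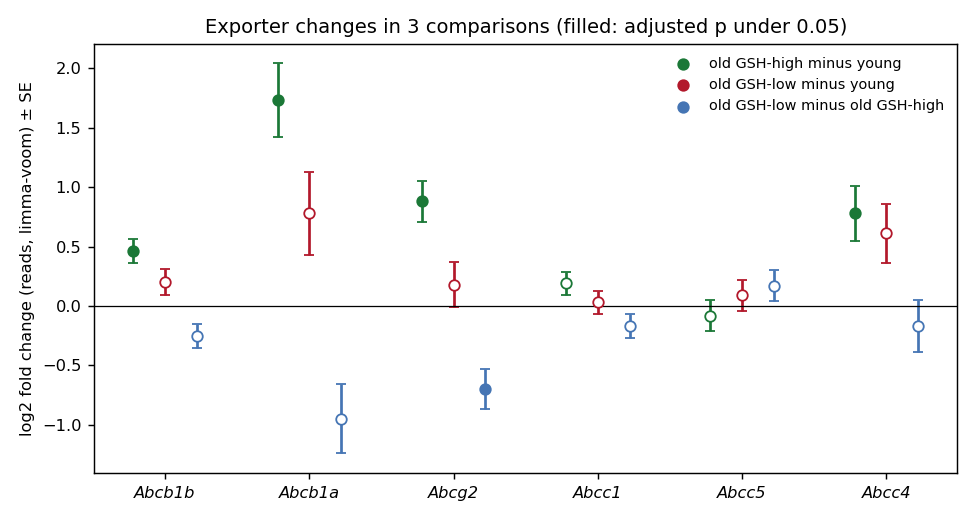
Log2 fold change of each exporter in limma-voom on recovered reads with no filter, for the 3 comparisons. Points are estimates, bars are standard errors, and filled points have an adjusted p under 0.05. The 4 filled points of old GSH-high minus young are Abcb1b, Abcb1a, Abcg2 and Abcc4, from 0.46 to 1.73, and Abcg2 at -0.70 is the filled point of old GSH-low minus old GSH-high.

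Between the 2 old fractions, which both come from old mice and differ by dye signal, exporter mRNA was lower in GSH-low cells for Abcg2 and Abcb1a, at 0.61 and 0.53 times the GSH-high mean, but no exporter passed the main test. By limma-trend 0 of 4 were called and 2 had an unadjusted p under 0.05, where 5.38% of genes were called, 3.69% higher and 1.69% lower. In limma-voom 1 of 6 was called and 3 had an unadjusted p under 0.05, where 6.36% of 12067 genes were called, 4.33% higher and 2.02% lower. The called gene was Abcg2, at -0.70 ± 0.17 (SE, 95% interval -1.07 to -0.33, limma-voom adjusted p = 0.0311), against -0.41 ± 0.11 and adjusted p = 0.0781 in limma-trend. It lost the limma-voom call when old GSH-high replicate 2 (adjusted p = 0.229) or either old GSH-low library was left out (0.131 for replicate 1, 0.252 for replicate 2). For Abcb1a the difference was -0.95 ± 0.29 (limma-voom adjusted p = 0.0822), and it was called when young replicate 1 (adjusted p = 0.035) or young replicate 2 (0.0352) was left out, which changes only the shared estimate of the spread. Abcb1b differed by -0.24 ± 0.11 (limma-trend adjusted p = 0.254) and Abcc1 by -0.15 ± 0.10 (limma-trend adjusted p = 0.438). Abcc5 and Abcc4 were at 1.12 and 0.90 times the GSH-high mean.

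No exporter passed either test between old GSH-low and young cells. Limma-trend called 0 of 4, with 0 under an unadjusted p of 0.05, where 36.8% of genes were called, 18.1% higher and 18.7% lower. In limma-voom 0 of 6 were called and 2 had an unadjusted p under 0.05, where 36.7% of genes were called (19.7% higher and 16.9% lower), and all 6 estimates lay above 0. They were 0.78 ± 0.35 for Abcb1a (adjusted p = 0.105, limma-voom), 0.61 ± 0.25 for Abcc4 (0.0718), 0.20 for Abcb1b (0.152), 0.18 for Abcg2 (0.471), 0.09 for Abcc5 (0.614) and 0.03 for Abcc1 (0.862). Single libraries decided 3 of these. Abcb1a was called without young replicate 2 (1.16, adjusted p = 0.0443, limma-voom) or old GSH-low replicate 2 (1.17, 0.035), Abcc4 without old GSH-low replicate 2 (0.90, 0.0267) and Abcb1b without young replicate 2 (0.32, 0.026). Abcc1 was the most even of the 6 here, at 1.02 times the young mean with a limma-trend 95% interval of -0.19 to 0.24.

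Transcripts of endothelial cells, which are known to carry P-glycoprotein and Abcg2, had the same direction as most exporter estimates in 2 of the 3 comparisons and the opposite direction in old GSH-low against young. Of 20 endothelial markers 19 had a row, none at 0 reads in any library, and their summed level was 58.3 and 70.2 RPKM in young, 136.0 and 135.0 RPKM in old GSH-high and 44.2 and 35.6 RPKM in old GSH-low. Limma-trend called 18 of the 19 higher in old GSH-high than in young (median log2 fold change 0.74) and 17 lower in the GSH-low than in the GSH-high fraction of old cells (median -1.19). Against young, 12 of the 19 were lower in old GSH-low and 0 were higher (median -0.47), while the 6 exporters had estimates above 0. Pecam1, which encodes CD31, the surface protein used to gate these cells out, was at 1.81 and 3.02 RPKM in young, 6.67 and 6.86 RPKM in old GSH-high and 1.41 and 0.877 RPKM in old GSH-low. Cldn5, of the endothelial tight junction, was at 5.65 and 5.58, then 8.22 and 10.4, then 1.84 and 1.76 RPKM, and Cdh5, the endothelial cadherin, at 1.06 and 1.26, then 3.37 and 3.36, then 0.969 and 0.45 RPKM. Other marker lists also differed between groups, so such a match of direction was not particular to endothelium. Median limma-trend changes of fibro-adipogenic, macrophage and fat cell markers had the direction of most exporter estimates in all 3 comparisons. Those of tenocyte, smooth muscle and pericyte, lymphocyte, and erythroid and platelet markers were instead above 0 in GSH-low against GSH-high. Those of satellite cell markers were below 0 in all 3. Summed tenocyte markers, all 10 with a row, were at 37.3 to 39.6 RPKM in young, 647.0 to 817.0 in old GSH-high and 2690.0 to 3080.0 in old GSH-low. Fibro-adipogenic markers (10 of 10) were at 793.0 to 797.0, 913.0 to 950.0 and 1020.0 to 1090.0 RPKM, of which Gsn alone was at 638, 758 and 903 RPKM. By gene this list did not share the rise of its sum from GSH-high to GSH-low cells, where limma-trend called 1 higher and 3 lower. Against young it called 7 higher and 1 lower in old GSH-high, and 5 higher and 2 lower in old GSH-low. Fat cell markers (4 of 7, with 3 at 0 reads in some library) were at 0.365 to 0.405, 48.9 to 69.8 and 2.21 to 3.34 RPKM, macrophage markers (5 of 11) at 5.55 to 8.01, 30.2 to 41.1 and 31.6 to 34.4 RPKM, and lymphocyte markers (6 of 9, with 4 at 0 reads in some library) at 1.09 to 1.1, 2.11 to 2.31 and 15.1 to 17.5 RPKM. Erythroid and platelet markers (5 of 8, with 1 at 0 reads in some library) were at 4.44 to 4.95, 16.0 to 16.3 and 12.9 to 24.3 RPKM. Satellite cell markers summed to 3810.0 to 4040.0, 3510.0 to 3690.0 and 3030.0 to 3160.0 RPKM, and those of smooth muscle and pericytes (10 of 10) to 195.0 to 205.0, 142.0 to 164.0 and 163.0 to 166.0 RPKM. Against young, most called genes of the smooth muscle and pericyte list went the other way from its sum. Of 8 tested, limma-trend called 5 higher and 2 lower in old GSH-high against young (median 0.64). It called 4 higher and 2 lower in old GSH-low against young (median 0.70). In GSH-low against GSH-high, where the summed ranges overlapped, 5 were higher and 0 lower (median 0.47). The part of these transcripts in the exporter differences was not tested.

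**Figure D3:**
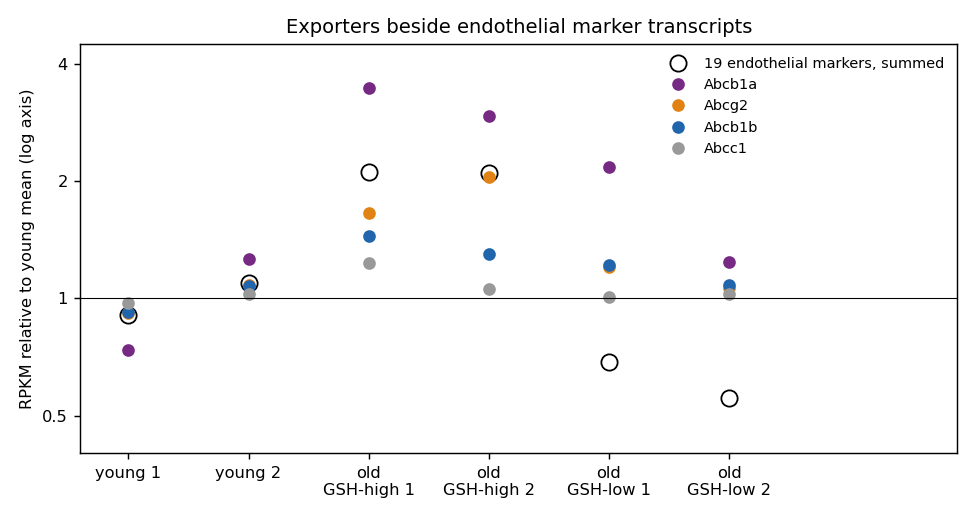
Level of 4 exporters and of 19 summed endothelial markers in each library, as RPKM divided by the young mean, on a log axis. Open circles are the marker sum and filled circles the exporters. In old GSH-high the marker sum is at 211.0% of the young mean, with Abcb1a above it, and in old GSH-low it is at 62.1% of the young mean while the exporters stay at or above the young mean.

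Among regulators known to act on exporter genes, 13 of the 18 listed were tested. In old GSH-high against young, limma-trend called 4 higher and 1 lower, where 15.1% of all genes were called higher and 13.7% lower. In old GSH-low against young it likewise called 4 higher and 1 lower, where 18.1% of all genes were called higher and 18.7% lower. Between the old fractions limma-trend and limma-voom both called 0, with 2 and 3 genes under an unadjusted p of 0.05. Ahr, the receptor that binds the xenobiotic response element, was at 15.0 and 19.8 RPKM in young, 38.1 and 39.9 in old GSH-high and 30.0 and 34.4 in old GSH-low. It rose by 1.13 ± 0.13 in old GSH-high (limma-trend adjusted p = 0.000335) and by 0.86 ± 0.13 in old GSH-low (0.0011) against young. Nfe2l2, which encodes the antioxidant regulator NRF2, rose by 0.34 ± 0.08 in old GSH-high (limma-trend adjusted p = 0.0116) and by 0.31 ± 0.08 in old GSH-low (0.0143). Epas1, a hypoxia-inducible factor also abundant in endothelium, was at 6.75 RPKM in old GSH-high against 3.19 RPKM in young, a rise of 0.89 ± 0.12 (limma-trend adjusted p = 0.000807). In old GSH-low Epas1 was at 5.67 RPKM, a rise of 0.67 ± 0.12 against young (limma-trend adjusted p = 0.00291). Keap1, the inhibitor of NRF2, differed by 0.03 (adjusted p = 0.863, limma-trend) and Hif1a by 0.12 (0.51) in old GSH-high against young.

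The enzymes that make the conjugates were also measured. Of 25 glutathione S-transferase genes 17 were tested. Limma-trend called 6 higher and 2 lower in old GSH-high against young (median 0.30), where 28.8% of all genes were called. It called 5 higher and 2 lower in old GSH-low against young, where 36.8% of all genes were called. Between the old fractions it called 0, where 4 had an unadjusted p under 0.05 and limma-voom also called 0 (2 unadjusted). The microsomal transferase Mgst1 was at 20.5 RPKM in old GSH-high and 8.17 RPKM in young, a rise of 1.22 ± 0.15 (limma-trend adjusted p = 0.00053), and Gstm2 was at 40.9 and 23.7 RPKM, a rise of 0.78 ± 0.14 (0.00338). Of 14 other genes of conjugate handling 8 were tested, with 3 higher and 2 lower in old GSH-high against young. Counts in old GSH-low against young were likewise 3 higher and 2 lower, and 2 were higher in old GSH-low against old GSH-high. Dpep1, the dipeptidase that cleaves the glutathione-derived dipeptide outside the cell, was at 8.37 RPKM in old GSH-high and 1.14 RPKM in young, a rise of 2.12 ± 0.15 (limma-trend adjusted p = 2.68e-05).

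Abcc4 and Abcc5 export cyclic nucleotides, Abcc1 exports leukotriene C4, and Abcc4 exports prostaglandins. Of 31 cyclases and phosphodiesterases 16 were tested, and limma-trend called 4 higher and 1 lower in old GSH-high against young. It called 3 higher and 1 lower in old GSH-low against young, and 1 lower in old GSH-low against old GSH-high. The phosphodiesterase Pde1a rose by 0.79 ± 0.10 (limma-trend adjusted p = 0.000523), and the adenylyl cyclase Adcy4 rose by 0.84 ± 0.15 (0.00323) in old GSH-high against young and was 1.03 ± 0.15 higher in old GSH-high than in old GSH-low (0.00374). Of 9 leukotriene and prostaglandin synthesis genes 4 were tested, and 2 rose in old GSH-high and in old GSH-low against young. Ptgs2, the inducible cyclooxygenase, was at 1.71 RPKM in young and 13.1 RPKM in old GSH-high (2.38 ± 0.20, limma-trend adjusted p = 7.17e-05), and Ptges, a prostaglandin E synthase, differed by 1.26 ± 0.11 (9.23e-05). Of 8 listed adaptors and trafficking partners 7 were tested, with 3 higher and 1 lower in old GSH-high against young. In old GSH-low against young 1 was higher and 1 lower. Between the old fractions 1 was lower in GSH-low than in GSH-high. That gene was Slc9a3r2, a PDZ scaffold, at 3.13 RPKM in young, 5.19 RPKM in old GSH-high and 2.73 RPKM in old GSH-low.

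The other ABC genes give the setting for the 6. Of 24 others in the table, limma-voom called 9 higher and 2 lower in old GSH-high against young (median 0.24), where it called 4 of the 6 exporters higher (median 0.62). Over all 12067 genes it called 17.6% higher and 13.8% lower. In old GSH-low against young it called 10 of the 24 higher and 0 lower (median 0.29), beside 0 of the 6 (median 0.19). Over all genes 19.7% were called higher and 16.9% lower there, and with only 6 exporters no contrast between the sets was tested. Between the old fractions it called 0 of the 24, and limma-trend called 0 of the 21 tested, each with 2 under an unadjusted p of 0.05. Abcc9, the sulfonylurea receptor subunit of potassium channels, had the largest change in the family in old GSH-high against young. It was at 0.435 RPKM in young and 2.69 RPKM in old GSH-high (1.36 ± 0.15, limma-trend adjusted p = 0.000304). Limma-trend also called it higher in old GSH-low against young, by 1.63. The peptide transporter gene Tap1 rose from 6.36 RPKM in young to 11.9 RPKM in old GSH-high (0.81 ± 0.11, limma-trend adjusted p = 0.000769). Both peptide transporter genes were called higher in each old group against young. Of 9 tested lipid transporters 2 rose in old GSH-high against young, Abca7 (0.68 ± 0.13, limma-trend adjusted p = 0.00488) and Abca9 (0.47 ± 0.13, 0.0288). In old GSH-low against young 3 of the 9 rose.

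**Figure D4:**
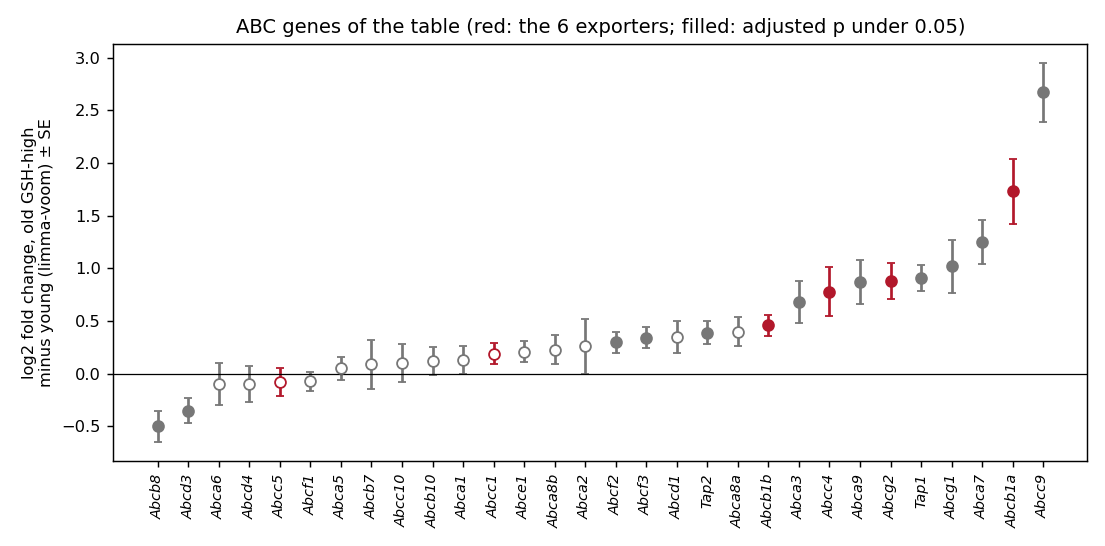
Log2 fold change of old GSH-high minus young for the 30 ABC genes of the table, in order, from limma-voom on recovered reads with no filter. Points are estimates, bars are standard errors, red marks the 6 exporters and filled points have an adjusted p under 0.05. Abcb1a at 1.73 is next to the highest value, that of Abcc9 at 2.67, and Abcc5 at -0.08 is among the lowest.

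Genes whose log2(RPKM + 1) followed an exporter most closely over the 6 libraries are given as a description, since all points share libraries and 3 groups. For Abcb1b these were Jag1 (Pearson r = 0.992), Acvr2a (0.991) and Spns2 (0.991), and 114 genes had r over 0.95. For Abcg2 they were Tfpi (r = 0.988), Pcp4l1 (0.987) and Prx (0.984), among 35 genes over 0.95. Abcc1 had 13 such genes, led by Toe1 (r = 0.992), Phrf1 (0.986) and Med26 (0.986), and Abcc5 had 7, led by 2610008E11Rik (r = 0.980), Agrn (0.977) and Arhgap23 (0.963). Jag1, a Notch ligand, was at 10.2 and 13.2 RPKM in young, 23.4 and 19.8 in old GSH-high and 15.9 and 14.2 in old GSH-low, the same order of libraries as Abcb1b.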

How the data were processed

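Polyadenylated RNA of the 6 libraries was reverse-transcribed with oligo(dT) and sequenced as single 150-base reads, per the labels' protocols. The submitters' processing notes name Trim Galore, STAR, Subread, featureCounts and edgeR and the builds mm10 and GRCm38, without versions. The deposited values are RPKM for 12067 genes. All 12067 rows gave whole reads (within 0.02 reads) when their steps were read back, and for 11814 genes (97.9%) the length used equalled that in GENCODE M21. The main test was limma-trend (limma 3.58.1, R 4.3.3) on log2(RPKM + 1), for genes at 1 RPKM or more in 2 or more libraries, in a model of 3 groups with 3 residual degrees of freedom. Tests were two-sided with Benjamini-Hochberg adjustment over all genes tested, called under 0.05. Limma-voom on recovered reads was the alternative, and its form without a filter was added after seeing the data. Replicates of old mice were pools, and 2 libraries per group limit every estimate of spread. Coding sequences were the longest reading frames of GENCODE transcripts. All 6 exporters were named whatever their p, then up to 3 called genes per list and the 3 most alike genes. The exporters and lists were chosen with earlier results of these data known. The result of 1 listed gene is not reported here.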

Additional observations from a re-analysis of the deposited data

How the results depend on the processing

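Leaving out libraries moved the counts of called genes most. The count for old GSH-low against old GSH-high was 571 and ranged from 312 to 863 over the fits that each left out a library, and was 864 when the 4 libraries of that comparison were fitted alone. For old GSH-high against young it was 3051, with a range of 1493 to 3802, the lowest without old GSH-high replicate 1 and 1816 without old GSH-high replicate 2. For old GSH-low against young it was 3901, with a range of 2068 to 4295, the lowest without old GSH-low replicate 1. With a replicate block the counts were 479, 2559 and 3350, and the block changed no exporter's call. The labels do not tie same-numbered libraries to each other, and the correlation of replicate differences over 10609 genes was 0.07 between the old fractions, -0.14 between young and old GSH-high and -0.26 between young and old GSH-low. Scaling by library size only gave 1932 higher and 1124 lower genes in old GSH-high against young, in place of 1598 and 1453, and 2258 and 1488 in old GSH-low against young, in place of 1919 and 1982, with the median gene shifted by at most 0.07. Abcb1b and Abcg2 then differed from young by 0.50 and 0.53 in old GSH-high and stayed called by limma-trend (adjusted p = 0.00872 and 0.00846). No exporter difference that limma-trend or limma-voom called changed direction under any alternative run. Among differences not called, that of Abcc4 between the old fractions turned from -0.17 to 0.12 in limma-voom without old GSH-low replicate 2, and those of Abcc5 in both old groups and of Abcc1 in old GSH-low against young also took either sign. Abcg2 was not tested with a filter of 2 RPKM. Abcb1a, Abcc4 and Abcg2 rest on 75 to 964 reads per library, and the 95% intervals printed for reads cover counting error only. The cause of these changes was not tested.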
